A study of Homo sapiens with 4 samples.

Results

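The genes described here are 39 members of the glutathione and NRF2 system and its neighbouring redox enzymes, measured in Huh7 cells, a human hepatocellular carcinoma line. They were listed by gene name, and every probe set with exactly 1 gene symbol of a member was taken. A gene value could be computed for 37 of the 39, among 19140 genes with a value in all. FTH1, the ferritin heavy chain, was not named in the platform's probe table under its symbol or an older one, and GSTA2 was named only on 5 probe sets that carry other symbols as well, so neither is analysed here. The siNF90 cells were depleted of NF90, a double-stranded RNA binding protein, with small interfering RNA. The other group is called siNTC in the labels and was taken as its control. Each group has 2 arrays, made from total RNA. The labels give no dose, time or culture of origin, and the p-values rest on a spread between arrays that may be technical alone. NF90's own gene is not analysed here, so the siNF90 label was taken as given. RNA from many cells was pooled in each sample, so fewer cells that carry a transcript and less of it per cell cannot be told apart.

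NRF2 is a transcription factor that switches on genes against oxidants and electrophiles. In resting cells KEAP1 holds it in the cytoplasm and hands it to a ubiquitin ligase, and when cysteines of KEAP1 are modified NRF2 escapes, pairs with small MAF proteins and binds antioxidant response elements. Its targets make glutathione, conjugate it to foreign compounds, reduce peroxides through thioredoxin and peroxiredoxin, supply NADPH through the pentose phosphate pathway and break down heme. Hepatocytes carry much of the body's conjugation of drugs and bile pigments, and the pathway is overactive in some liver tumours.

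Values are on the log2 scale, and a difference is siNF90 minus siNTC. A gene value is the mean of the gene's probe sets that lie at or above the 40th percentile of all probe sets, a log2 value of 2.13. The 37 genes had 405 probe sets with 1 symbol, of which 329 passed that filter. The 4 arrays correlated at between 0.936 and 0.958 over all genes, which are not independent replicates. The highest value was that of the first siNTC array with the first siNF90 array. The 2 siNTC arrays correlated at 0.957 and the 2 siNF90 arrays at 0.950, so the arrays did not group by treatment. Of the hepatocyte markers listed, ALB, AFP, TF, TTR, APOA1, APOB, SERPINA1 and FGB together kept 113 of 118 probe sets above the filter, whereas fibroblast markers kept 55 of 126, endothelial markers 32 of 79 and leukocyte markers 18 of 50. The endothelial count is over CDH5, KDR and VWF, and PECAM1 kept 0 of its 1 probe set. Among the leukocyte markers lysozyme (LYZ) was the exception, with all 8 of its probe sets kept. HNF4A was not named on any probe set with a single symbol. The mean level of the hepatocyte markers was 9.31 and 9.25 on the siNF90 arrays and 9.47 and 9.35 on the siNTC arrays. Of the 8 genes 4 lay lower without overlap, against 22.0% of all genes, and 1 higher, against 19.2% of all genes. Their differences ran from -0.52 for FGB to 0.25 for TTR. The mean level of the leukocyte markers was 5.02 and 4.33 on the siNF90 arrays and 4.34 and 4.17 on the siNTC arrays, that of the endothelial markers 3.23 and 3.28 against 2.90 on both siNTC arrays, and that of the fibroblast markers 3.30 and 3.35 against 3.37 and 3.55. Among all these markers 0 passed the limma test, with adjusted p of 0.547 or more, and their part in the results was not tested.

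HMOX1, SRXN1, GSTA1, MGST2 and GCLM had the largest negative differences among the redox genes, between -0.65 and -0.38, and GSTM2 had the largest positive one, 0.94. The 2 genes at the top of the pathway, NFE2L2 and KEAP1, had differences of 0.10 and 0.092. None of these passed the test. In limma 0 of the 37 genes passed an adjusted p of 0.05, where 0% of all genes were called, and the adjusted p of the 37 lay between 0.514 and 0.983. With a trend and robust prior 0 of the 37 passed again, where 0.251% of all genes were called, and the smallest adjusted p was 0.18, that of GSTM2. At an unadjusted p under 0.05 there were 2 redox genes lower in siNF90, or 5.41%, against 5.29% of all genes, and 1 of the 37 was higher, against 3.51% of all genes. The counts of small p-values were therefore near the background in both directions.

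In 13 of the 37 genes the higher siNF90 array was still under the lower siNTC array, which is 35.1% against 22.0% of all genes. In 5 genes the groups were separated the other way, which is 13.5% against 19.2% of all genes. AKR1C1 is among these 5, although 3 of its 4 probe sets were lower. Differences were negative in 24 of the 37 genes and positive in 13. Their mean was -0.054 and their median -0.085, and over all genes the mean was -0.023 and the median -0.018. The mean level over the 37 genes was 6.19 and 6.20 on the siNF90 arrays and 6.20 and 6.30 on the siNTC arrays. The 2 siNTC arrays thus lay 0.097 apart, more than the 0.054 between the groups, and without the second siNTC array the mean difference was -0.0061. With the filter at the 60th percentile of probe sets the mean difference was 0.00028, where AKR1C1 alone stood at 2.81. Without AKR1C1 the mean over the other 36 genes was -0.078 at that filter and -0.067 at the 40th percentile, a comparison chosen after seeing the data. The mean over the 37 genes was negative in 11 of 12 other settings.

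**Figure D1:**
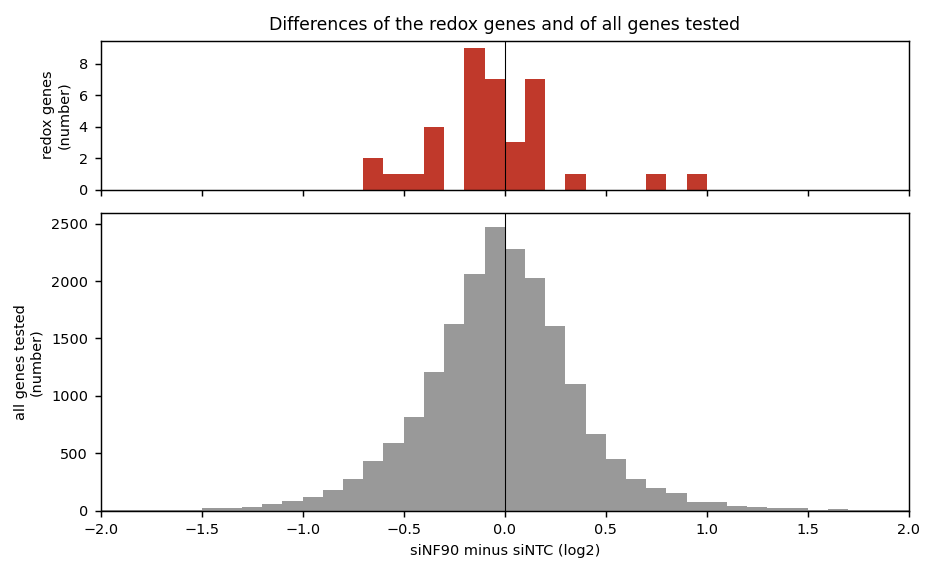
Number of genes (vertical axes) by siNF90 minus siNTC difference in bins of 0.1 (horizontal axis, log2), for the 37 redox genes in the upper panel and the 19140 genes tested in the lower panel, drawn from -2 to 2. Most redox genes lie near 0, with HMOX1 and SRXN1 lowest and GSTM2 highest at 0.94.

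Among the regulators, NFE2L2, which encodes NRF2 itself, had 7.06 and 7.04 in siNF90 cells and 7.06 and 6.83 in siNTC cells. The second siNTC array lay lower than the others, which were close together. The NFE2L2 probe set with the highest difference, 1.44, had 5.36 and 5.55 in siNF90 cells and 5.05 and 2.99 in siNTC cells. Of its 13 probe sets 8 were higher and 5 lower. The difference of 0.10 had a limma 95% interval from -0.39 to 0.59 (adjusted p = 0.896), and it was -0.017 without the second siNTC array and -0.041 with the median of probe sets. KEAP1 had 5.03 and 5.44 in siNF90 cells and 5.36 and 4.92 in siNTC cells. The groups overlapped, and the difference of 0.092 had an interval from -0.58 to 0.77 (limma adjusted p = 0.935). KEAP1 turned negative without the second siNTC array, at -0.13, and without the second siNF90 array, at -0.11. A mean NFE2L2 difference beyond 0.59 in either direction lies outside its interval, while for KEAP1 the arrays leave a wider range.

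In glutathione synthesis the groups overlapped for 1 subunit of the first enzyme and not for the other. GCLM, the modifier subunit of glutamate-cysteine ligase, had 5.60 and 5.51 in siNF90 cells and 5.94 and 5.93 in siNTC cells. The groups did not overlap, the arrays within a group lay at most 0.087 apart, and all 10 probe sets had negative differences. Of these probe sets 5 lay lower without overlap, and the difference nearest 0 was -0.0062. The siNTC arrays lay further apart in single probe sets, with 7.17 and 8.33 in 1 and 4.84 and 3.72 in another. The GCLM difference was -0.38 (SE 0.17, 95% interval -0.83 to 0.069, limma adjusted p = 0.611), or 1.30-fold lower, and leaving out single arrays gave -0.42 to -0.34. With the median of probe sets it was -0.35 (SE 0.25, limma adjusted p = 0.747). GCLC, the catalytic subunit, had 6.78 and 6.63 in siNF90 cells and 6.71 and 6.86 in siNTC cells. Its groups overlapped, with a difference of -0.085 (SE 0.18, 95% interval -0.57 to 0.40, limma adjusted p = 0.911). That interval includes the GCLM difference. Of the 17 GCLC probe sets 11 were lower and 6 higher. The GCLC difference was -0.19 with the filter at the 60th percentile and -0.20 with the median of probe sets. Whether GCLM and GCLC differ from each other in their response was not tested.

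SLC7A11, the cystine importer xCT that supplies cysteine for glutathione, had 6.62 and 6.41 in siNF90 cells and 6.64 and 6.60 in siNTC cells. Only the second siNF90 array lay clearly below the others, and the difference was -0.11 (95% interval -0.59 to 0.37, limma adjusted p = 0.887). GSS, which completes glutathione, had a difference of -0.056 with 9 of 17 probe sets higher. GSR, the reductase that returns oxidised glutathione to its reduced form, had 8.21 and 8.28 in siNF90 cells and 8.08 and 8.13 in siNTC cells. These groups did not overlap, 13 of 15 probe sets were higher in siNF90, and the difference was 0.14 (95% interval -0.31 to 0.59, limma adjusted p = 0.838).

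The 4 glutathione peroxidases had small negative differences, from -0.17 to -0.036. GPX4, the selenoenzyme that reduces lipid peroxides in membranes, had 7.73 and 7.78 in siNF90 cells and 7.78 and 7.85 in siNTC cells. The difference of -0.063 had a 95% interval from -0.51 to 0.39 (limma adjusted p = 0.932), although the groups did not overlap. GPX1, the general cytosolic enzyme, had -0.17, the epithelial GPX2 had -0.036 and the secreted GPX3 had -0.090, with overlapping arrays in each.

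Among the 12 glutathione transferases measured, GSTM2 stood highest. This cytosolic mu class enzyme had 4.74 and 5.04 in siNF90 cells and 3.98 and 3.93 in siNTC cells. All 4 of its probe sets had positive differences, the smallest of 0.13, and in 3 of them the groups did not overlap. The mean was 4.89 ± 0.21 in siNF90 cells and 3.95 ± 0.034 in siNTC cells (SD, n = 2 each), a difference of 0.94 (SE 0.20, 95% interval 0.42 to 1.45) or 1.91-fold. Its unadjusted p in limma was 0.0058 and its adjusted p 0.514. Leaving out single arrays gave 0.79 to 1.09. With the median of probe sets the difference was 0.92 (SE 0.42, limma unadjusted p = 0.081). The siNTC arrays lay further apart in single probe sets, with 6.29 and 5.57 in 1 and 3.77 and 4.75 in another. Another 2 probe sets that name GSTM2 together with other genes were not used. The mu class genes are close copies of each other, and how far a probe set of one reads another was not tested. Its neighbours in the family had smaller differences, with 0.17 for GSTM4 (limma adjusted p = 0.813) and -0.13 for GSTM3 (adjusted p = 0.844).

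GSTA1, an abundant alpha class transferase of liver, had 4.25 and 3.80 in siNF90 cells and 4.68 and 4.52 in siNTC cells. The groups did not overlap, and the difference was -0.58 (SE 0.23, 95% interval -1.18 to 0.028, limma adjusted p = 0.577), or 1.49-fold lower. It rested on 3 probe sets that did not act alike, with differences of -1.85, -0.23 and 0.36. The lowest of them had 3.53 and 3.28 in siNF90 cells and 5.16 and 5.35 in siNTC cells. Without the second siNF90 array the GSTA1 difference was -0.35, without the dim filter -0.32 and with the median of probe sets -0.91. Another 5 probe sets that carry GSTA1 together with other symbols were left out. GSTA4, which conjugates the lipid peroxidation product hydroxynonenal, had 6.02 and 5.92 in siNF90 cells and 6.33 and 6.23 in siNTC cells. Its difference was -0.31 (SE 0.18, limma adjusted p = 0.661), with 7 of 9 probe sets lower, and it was -0.52 with the median of probe sets.

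MGST2, a microsomal transferase that can also make leukotriene C4, had 6.12 and 5.74 in siNF90 cells and 6.38 and 6.34 in siNTC cells. The siNTC arrays lay close together and both siNF90 arrays below them, and 8 of 10 probe sets were lower. The MGST2 difference of -0.42 (SE 0.21, 95% interval -0.97 to 0.13, limma adjusted p = 0.63) shrank to -0.23 without the second siNF90 array. MGST1 and MGST3, of the same membrane family, had -0.033 and 0.081 with overlapping arrays.

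GSTP1, the pi class transferase, had 6.69 and 6.76 in siNF90 cells and 6.86 and 7.32 in siNTC cells. Its difference of -0.36 (SE 0.23, limma adjusted p = 0.687) drew on the second siNTC array, without which it was -0.14. Of its 11 probe sets 5 were higher and 6 lower, and 1 dim probe set had 1.25 and 1.34 in siNF90 cells and 3.83 and 3.96 in siNTC cells, a difference of -2.60 (limma adjusted p over all probe sets = 0.629). With the filter at the 60th percentile GSTP1 had -0.032. GSTO1, an omega class enzyme, had -0.19 without overlap of the groups, but -0.0077 with the filter at the 60th percentile and 0.34 with the median of probe sets. The mitochondrial and peroxisomal GSTK1 had 0.18, and GSTZ1, an enzyme of tyrosine breakdown, had -0.13. Of the 12 transferases, 6 lay lower in siNF90 without overlap, against 22.0% of all genes, and 1 higher, against 19.2% of all genes, and 0 passed the test.

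**Figure D2:**
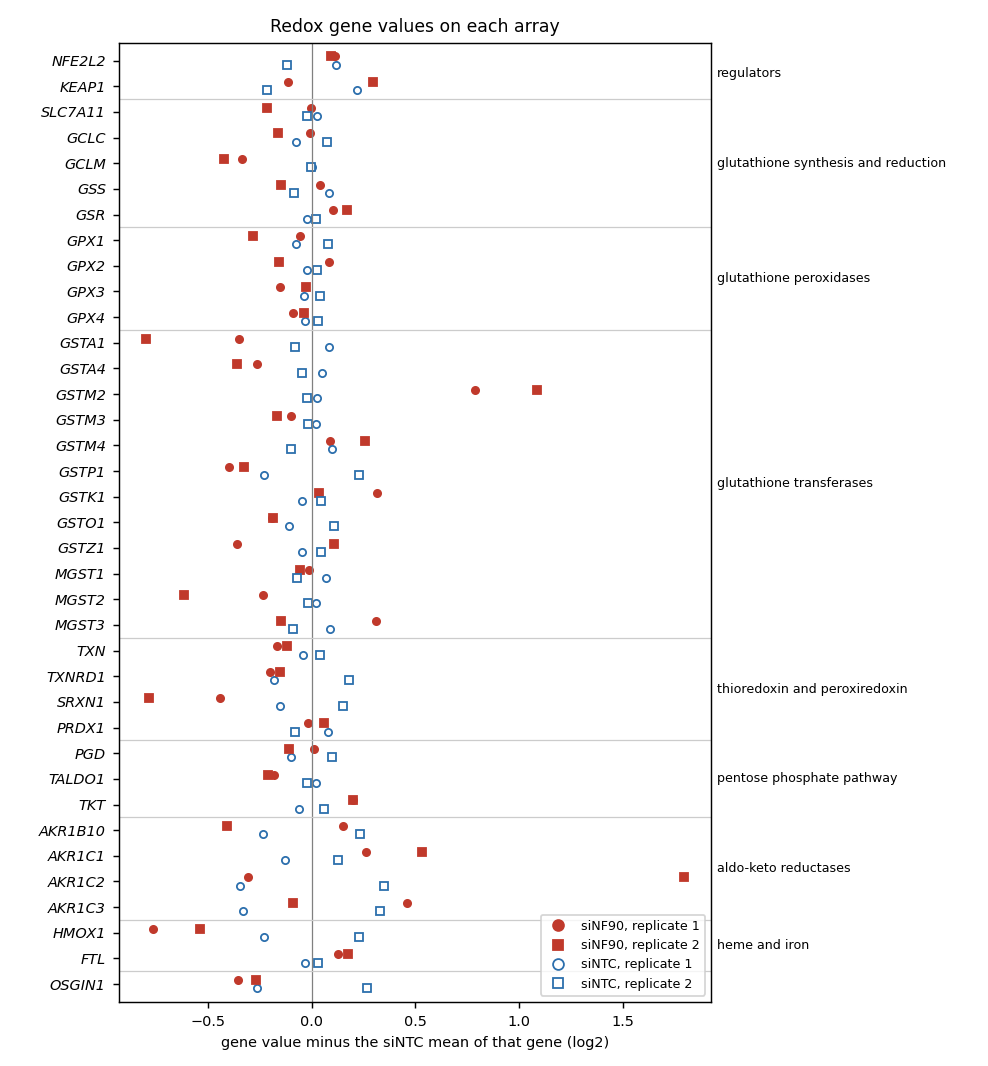
Gene value of each redox gene on each array (horizontal axis, log2, relative to the siNTC mean of that gene), with filled red symbols for siNF90 and open blue symbols for siNTC, circles for replicate 1 and squares for replicate 2. The siNF90 arrays stand at 0.79 and 1.09 for GSTM2, and for HMOX1, SRXN1, GSTA1, MGST2 and GCLM both stand below both siNTC arrays.

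In the thioredoxin and peroxiredoxin branch SRXN1 had the largest difference. Sulfiredoxin, its product, repairs peroxiredoxins that have been overoxidised. SRXN1 had 4.499 and 4.160 in siNF90 cells and 4.79 and 5.09 in siNTC cells, and 5 of its 6 probe sets were lower. The mean was 4.33 ± 0.24 in siNF90 cells and 4.94 ± 0.21 in siNTC cells (SD, n = 2 each). The SRXN1 difference of -0.61 (SE 0.22, 95% interval -1.20 to -0.024) is 1.53-fold lower and had an unadjusted p of 0.044 and an adjusted p of 0.555 in limma. Leaving out single arrays gave -0.78 to -0.44.

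TXNRD1, the cytosolic thioredoxin reductase, had 7.40 and 7.44 in siNF90 cells and 7.42 and 7.78 in siNTC cells. The second siNTC array lay above the others, which were close together. The TXNRD1 difference of -0.18 (SE 0.21, 95% interval -0.72 to 0.37, limma adjusted p = 0.829) was 0.0056 without that array and 0.0012 without the dim filter. With the filter at the 60th percentile it was -0.25, and 13 of the 18 TXNRD1 probe sets were lower and 5 higher. TXN, thioredoxin itself, had 8.50 and 8.55 in siNF90 cells and 8.63 and 8.71 in siNTC cells, a difference of -0.14 (limma adjusted p = 0.831). PRDX1, a peroxiredoxin that SRXN1 repairs, had 9.27 and 9.35 in siNF90 cells and 9.37 and 9.21 in siNTC cells. Its arrays overlapped, with a difference of 0.022.

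Heme oxygenase 1, the product of HMOX1, opens the heme ring and releases iron and carbon monoxide, and BACH1 represses its gene. HMOX1 had 5.57 and 5.79 in siNF90 cells and 6.10 and 6.56 in siNTC cells. Neither siNF90 array reached the lower siNTC array, and all 6 probe sets had negative differences within a narrow range, from -0.77 to -0.31. The mean was 5.68 ± 0.16 in siNF90 cells and 6.33 ± 0.32 in siNTC cells (SD, n = 2 each). The HMOX1 difference of -0.65 (SE 0.24, 95% interval -1.27 to -0.031) is 1.57-fold lower, with an unadjusted p of 0.043 and an adjusted p of 0.555 in limma. The 2 siNTC arrays lay 0.46 apart, and without the second of them the difference was -0.42. FTL, the ferritin light chain that stores iron, had 11.03 and 11.08 in siNF90 cells and 10.87 and 10.93 in siNTC cells. Its 3 probe sets were all higher without overlap, by 0.088 to 0.25, and the gene difference was 0.15 (95% interval -0.30 to 0.60, limma adjusted p = 0.82). OSGIN1, an oxidative stress gene reported as an NRF2 target, had 4.063 and 4.154 in siNF90 cells and 4.155 and 4.685 in siNTC cells. Its groups were separated by the third decimal only, and the difference of -0.31 became -0.046 without the second siNTC array.

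Of the 3 pentose phosphate enzymes, which make NADPH and rebuild sugar phosphates, 0 passed the test. TKT, transketolase, had 8.41 on both siNF90 arrays and 8.15 and 8.27 on the siNTC arrays, with 15 of 18 probe sets higher. Its difference was 0.20 (95% interval -0.26 to 0.65, limma adjusted p = 0.769). It was 0.12 under the stricter 60th percentile filter and 0.11 with the median of probe sets. TALDO1, transaldolase, had 8.60 and 8.57 in siNF90 cells and 8.81 and 8.76 in siNTC cells, with 4 of 5 probe sets lower. The TALDO1 difference was -0.20 (95% interval -0.64 to 0.25, limma adjusted p = 0.766), and -0.048 without the dim filter. PGD, which makes NADPH from phosphogluconate, had -0.048 with overlapping arrays.

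Of the aldo-keto reductases, which reduce carbonyl compounds and steroids, the AKR1C genes were among the least well measured genes here. AKR1B10 kept all 4 of its probe sets. AKR1C2 had 3.30 and 5.40 in siNF90 cells and 3.26 and 3.95 in siNTC cells, from 2 probe sets. The siNF90 arrays lay 2.10 apart, and without the second of them the AKR1C2 difference of 0.74 turned to -0.31. AKR1C1 had 2.79 and 3.06 in siNF90 cells and 2.40 and 2.65 in siNTC cells, and no fold is given since siNTC cells lay below the median of all probe sets. In the AKR1C1 gene value the groups did not overlap, but they overlapped in each of its probe sets. Of its 4 probe sets 3 were lower, and the positive AKR1C1 difference of 0.40 came from 1 probe set with 2.63 and 7.43 in siNF90 cells and 3.59 and 0.86 in siNTC cells. AKR1C1 had 2.81 with the filter at the 60th percentile and -0.52 with the median of probe sets. AKR1C3 had 0.18 and AKR1B10 -0.13, each with overlapping arrays. The AKR1C genes are related copies, and how far their probe sets read each other was not tested.

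**Figure D3:**
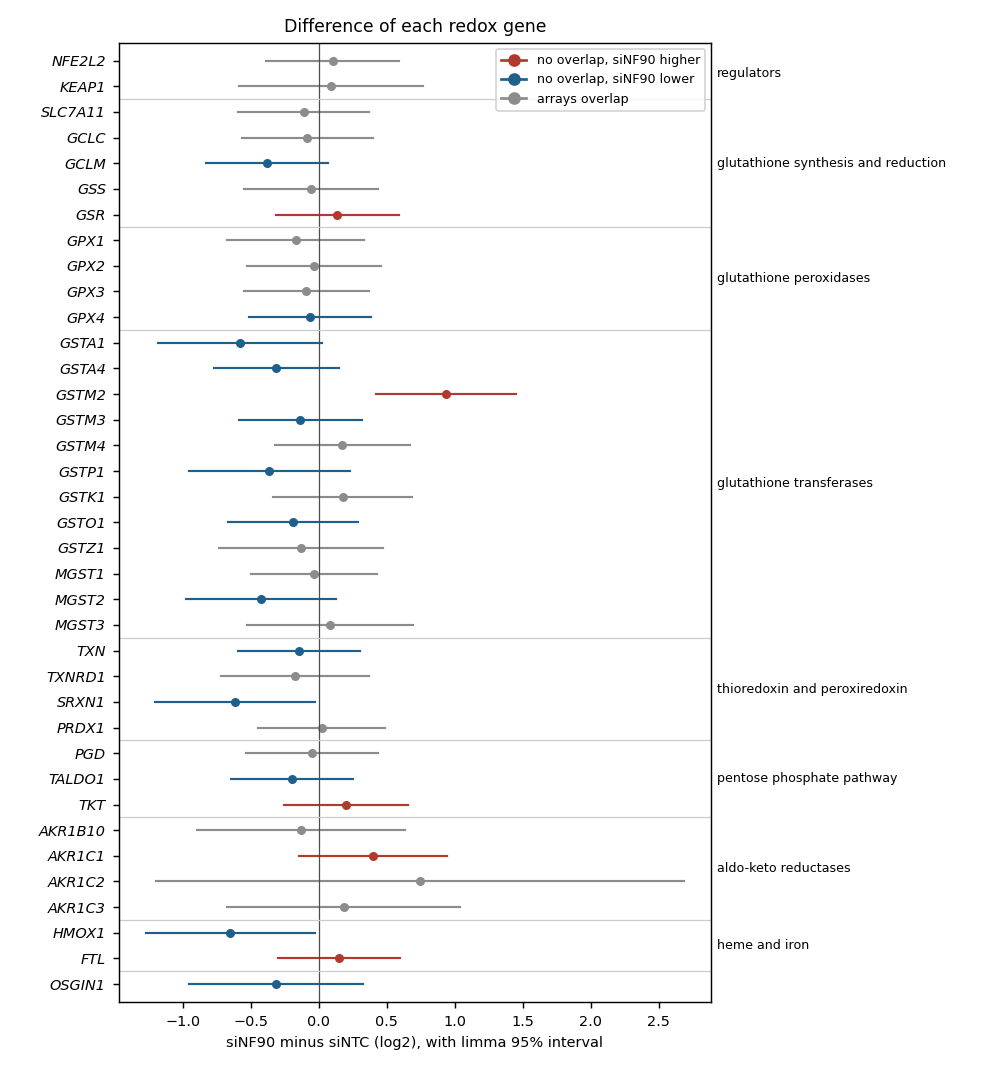
Difference between siNF90 and siNTC (horizontal axis, log2) of each redox gene, with points for the estimate and bars for the limma 95% interval, coloured by whether the arrays of the groups overlap. The intervals of GSTM2, SRXN1 and HMOX1 do not include 0 before adjustment over all genes, and AKR1C2 has the widest bar.

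Probe sets within a gene were also examined, since each covers part of a gene. Of the 329 probe sets of the redox genes, 80 lay lower in siNF90 without overlap, which is 24.3% against 20.3% of all probe sets. Another 43 lay higher, which is 13.1% against 18.0% of all probe sets. In limma over all 171120 probe sets kept, 0% were called, and the smallest adjusted p among the redox genes was 0.629. Unequal change of the probe sets within a gene, tested with diffSplice, was called in 0 of 37 redox genes against 2.76% of all genes tested. The smallest false discovery rates among them were 0.116 for SLC7A11 and 0.127 for GCLC. One probe set of SLC7A11 had 3.12 and 3.31 in siNF90 cells and 4.93 and 4.60 in siNTC cells, a difference of -1.55, against a gene difference of -0.11. The extreme probe sets of GCLC ran from -1.26 to 1.51. All probe sets pointed down in GCLM, HMOX1 and OSGIN1 and up in GSTM2, FTL and AKR1C2.

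**Figure D4:**
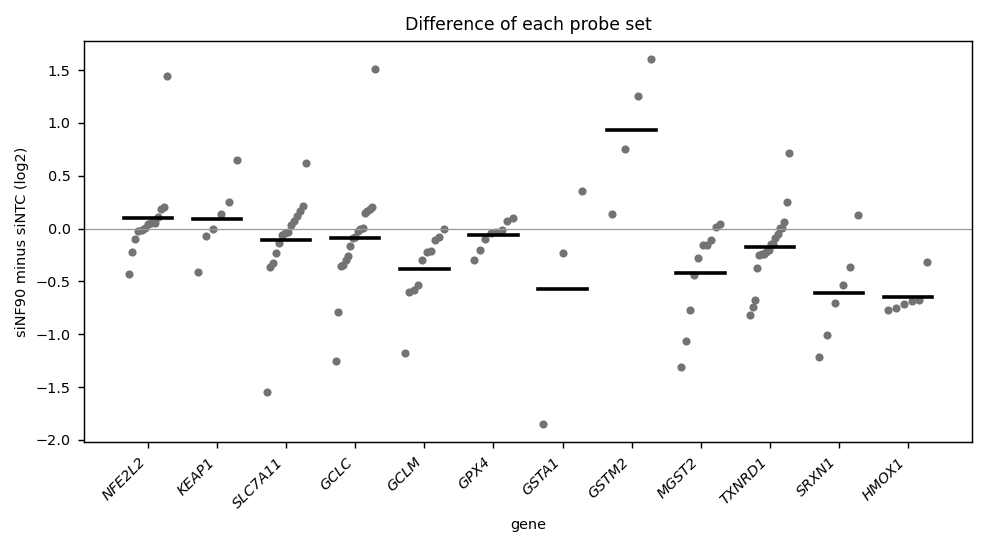
Difference of each probe set between siNF90 and siNTC (vertical axis, log2) for 12 redox genes (horizontal axis), with points for probe sets and a line for the gene difference. The 6 probe sets of HMOX1 and the 10 of GCLM all lie below 0, whereas those of GSTA1 run from -1.85 to 0.36.

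Promoter sequences were examined because NRF2 acts through the antioxidant response element, whose core is written here as TGACNNNGC. The search covered both strands of the RefSeq windows from 250 bases before to 50 bases after each gene's start (GRCh38.p14). Windows were found for 31 of the 39 genes. The core occurred in 9 of these 31 genes (29.0%), against 16.1% of the 27305 genes with a window, and by window in 25.6% against 13.3% of 35116. Of the 13 genes lower in siNF90 without overlap, 11 had a window and 4 of them held the core, which were GCLM, GSTP1, GSTA4 and GSTO1. Of the 4 genes higher without overlap that had a window, 0 held it. A match of letters is a description of the window and says nothing of binding. GSR, HMOX1, AKR1B10, MGST2, GSS, PRDX1, SLC7A11 and FTH1 had no entry.

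The windows of those 4 genes are printed 5′ to 3′ on the strand of the gene, with the matched core in capitals. They lie at chr1:93909381-93909680 on the minus strand (GCLM), chr11:67583562-67583861 on the plus strand (GSTP1), chr6:52995235-52995534 on the minus strand (GSTA4) and chr10:104254642-104254941 on the plus strand (GSTO1).
GCLM: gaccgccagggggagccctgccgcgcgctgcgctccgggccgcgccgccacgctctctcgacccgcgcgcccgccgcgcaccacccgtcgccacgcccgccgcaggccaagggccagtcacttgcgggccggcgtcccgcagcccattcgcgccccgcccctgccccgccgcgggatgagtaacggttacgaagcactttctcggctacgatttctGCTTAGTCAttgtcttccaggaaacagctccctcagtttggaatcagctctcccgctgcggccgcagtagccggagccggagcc
GSTP1: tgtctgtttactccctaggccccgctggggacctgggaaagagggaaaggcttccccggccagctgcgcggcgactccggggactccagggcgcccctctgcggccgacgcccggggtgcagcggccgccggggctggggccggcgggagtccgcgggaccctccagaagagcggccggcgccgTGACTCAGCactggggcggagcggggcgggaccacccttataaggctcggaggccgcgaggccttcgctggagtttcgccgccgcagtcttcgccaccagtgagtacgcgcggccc
GSTA4: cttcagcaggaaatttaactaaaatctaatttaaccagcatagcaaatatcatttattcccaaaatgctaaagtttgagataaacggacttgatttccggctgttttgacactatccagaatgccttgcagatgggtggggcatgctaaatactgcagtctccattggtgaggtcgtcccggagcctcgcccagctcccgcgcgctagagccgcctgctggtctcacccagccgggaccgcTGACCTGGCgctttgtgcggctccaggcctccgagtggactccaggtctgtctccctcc
GSTO1: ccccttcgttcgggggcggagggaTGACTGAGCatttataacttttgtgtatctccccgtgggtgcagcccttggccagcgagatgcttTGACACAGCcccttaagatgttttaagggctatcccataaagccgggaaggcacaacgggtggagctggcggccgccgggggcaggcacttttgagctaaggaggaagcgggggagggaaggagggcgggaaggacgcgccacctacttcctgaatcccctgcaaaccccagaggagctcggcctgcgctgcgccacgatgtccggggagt

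In GCLM the core lies on the opposite strand and begins 34 bases before the start, where the gene strand reads GCTTAGTCA. GSTP1 has TGACTCAGC beginning 66 bases before the start, and GSTA4 has TGACCTGGC beginning 9 bases before it. GSTO1 has 2 matches, TGACTGAGC and TGACACAGC, at 226 and 161 bases before the start. The other genes with a match were TXNRD1, GPX2, KEAP1, PGD and MGST1, whose groups overlapped. KEAP1 holds the same letters as GCLM on the opposite strand, GCTTAGTCA, beginning 31 bases before its start. Of the 9 genes with the core, 8 had a negative difference and KEAP1 a positive one, of 0.092. The sign held in all 12 other settings for GCLM, GSTP1 and GSTA4. It turned in at least 1 of them for GSTO1, TXNRD1, GPX2, KEAP1, PGD and MGST1. Of the 21 genes with a window, a value and no core, 11 were negative and 10 positive. Over all 19140 genes, 10050 were negative. These counts are a description, and the differences between them were not tested. Sequence outside the windows was not searched, so a gene without the core in its window may hold it elsewhere.

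Genes of the same pathway outside the list were taken from a list of 63 regulators, NRF2 targets, redox enzymes and glutathione-handling genes, of which 59 had a value. In this wider list 0 genes passed the limma test, 10 lay lower in siNF90 without overlap (16.9%, against 22.0% of all genes) and 11 higher (18.6%, against 19.2% of all genes), and the mean difference was -0.046. NQO1, the quinone reductase often used as a readout of NRF2, had 7.88 and 7.72 in siNF90 cells and 7.90 and 7.73 in siNTC cells. Its difference was -0.020 (SE 0.19, limma adjusted p = 0.985), smaller than the gap between arrays of either group. ME1, malic enzyme, had 0.11 (limma adjusted p = 0.882). BACH1, the repressor of HMOX1, rested on 3 probe sets and had 2.25 and 3.57 in siNF90 cells and 3.39 and 2.87 in siNTC cells, so its arrays overlapped widely. Among the partners, GSK3B, a kinase that marks NRF2 for destruction, had 0.29 (limma adjusted p = 0.687) and CUL3, the ligase scaffold that KEAP1 binds, 0.14 (adjusted p = 0.851).

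Further genes of that list, from several of its subgroups, had larger negative values. HAGH, the glyoxalase that frees glutathione from lactoylglutathione, had 5.71 and 5.53 in siNF90 cells and 6.25 and 6.36 in siNTC cells. All 11 of its probe sets were lower, and the HAGH difference was -0.69 (SE 0.18, limma adjusted p = 0.514, and 0.147 with the trend and robust prior). GSTCD, which carries a transferase-like domain, had 5.46 and 5.12 in siNF90 cells and 6.30 and 5.78 in siNTC cells, a difference of -0.75 (SE 0.26, limma adjusted p = 0.55). GPX8, a peroxidase of the endoplasmic reticulum, had -0.56 (SE 0.19, limma adjusted p = 0.544), and ABCC3, an exporter of glucuronide conjugates, -0.55 (SE 0.17, adjusted p = 0.523). UGDH, which makes UDP-glucuronic acid, had -0.33 (limma adjusted p = 0.648). AIFM2, the ferroptosis suppressor FSP1, had -0.63 (SE 0.28, limma adjusted p = 0.605). On the positive side were GSTT1, a theta class transferase, at 0.45 (limma adjusted p = 0.591) with 7 of 8 probe sets higher, SOD2, the mitochondrial superoxide dismutase, at 0.36 (limma adjusted p = 0.665) and GGT7, of the gamma-glutamyltransferase family, at 0.37 (adjusted p = 0.655).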

How the data were processed

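Total RNA of Huh7 cells, 2 siNF90 and 2 siNTC samples, was measured on 1 Affymetrix array each. The deposited log2 values came from RMA-sketch in Affymetrix Expression Console, per the labels. The log base was taken from the method and the range of the values. Neither a program version nor a genome build is named in the sources used here. RMA corrects background, normalizes quantiles and summarises probes, and it pulls folds towards 1. Array medians lay between 2.72 and 2.79 over 352859 rows, of which 257971 had 1 symbol, 17460 several and 77428 none.

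Gene values were means of rows with 1 symbol at or above the 40th percentile, 171120 rows in 19140 genes. All genes were fitted with limma 3.58.1 in R 4.3.3 (lmFit, eBayes, no covariate, two-sided, Benjamini-Hochberg over all genes, threshold 0.05). Rows were fitted the same way, with diffSplice (Simes). The fit was tested on simulated data with planted differences larger than that of any redox gene here. That test does not show how well differences of their size are found. With 2 arrays per group, precision is limited by their number. Dim and bright rows count alike in a gene value, and rows shared by several genes were left out.

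The members and lists were chosen with earlier results of these data known. Genes described in full are NFE2L2, KEAP1, GCLC, GCLM, SLC7A11, HMOX1, TXNRD1 and GPX4, and members with an unadjusted p under 0.05 or with no overlap and a difference of at least 0.4. Of the wider list, NQO1, ME1, BACH1 and the 2 genes of smallest p in each subgroup were named. Other genes and single probe sets named were chosen after their values were seen. Alternatives were no dim filter, the 60th percentile, the median of rows, quantile normalization again, centring, the replicate number as a block, a trend and robust prior, leaving out each array, and identical rows counted once.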

Additional observations from a re-analysis of the deposited data

How the results depend on the processing

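Across 12 other settings 0 of the 37 redox genes passed the threshold, and the smallest adjusted p was 0.18 in limma. The sign of the difference held in all 12 for 20 genes, among them HMOX1, SRXN1, GCLM, GSTA1, MGST2 and GSTM2, and turned in at least 1 setting for 17. The trend and robust prior and the replicate block cannot turn a sign, and all settings reuse the same arrays. The mean difference over the genes was 0.00028 with the filter at the 60th percentile and -0.11 with the median of rows, and it ran from -0.10 to -0.0061 when arrays were left out. Without AKR1C1, chosen after seeing the data, it was -0.067, or -0.078 under the stricter filter. The number of genes higher without overlap was 3 with the median of rows and 8 to 10 when arrays were left out, and the number lower was 16 to 21, by construction since fewer arrays overlap less.

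Without the dim filter GSTM4 had -0.035, TXNRD1 0.0012 and AKR1C3 -0.015. With the filter at the 60th percentile AKR1B10 had 0.10. With the median of rows NFE2L2 had -0.041, GPX2 0.086, GSTM4 -0.070, GSTK1 -0.0013, GSTO1 0.34, GSTZ1 0.25, PRDX1 -0.10, AKR1B10 0.16 and AKR1C1 -0.52. When arrays were left out, the ranges that crossed 0 were -0.15 to 0.039 for GSS, -0.10 to 0.035 for MGST1, -0.15 to 0.51 for AKR1C3, -0.017 to 0.22 for NFE2L2, -0.13 to 0.31 for KEAP1, -0.15 to 0.31 for MGST3, -0.36 to 0.0056 for TXNRD1, -0.056 to 0.10 for PRDX1, -0.15 to 0.051 for PGD, -0.41 to 0.15 for AKR1B10, -0.36 to 0.11 for GSTZ1, -0.16 to 0.085 for GPX2 and -0.31 to 1.80 for AKR1C2. The cause was not tested.

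The replicate number as a block gave 0 calls among the redox genes and changed no other call. Deviations of same-numbered arrays correlated at -0.0118 over all genes, so the numbers were not taken as pairs. Over all genes the counts were 0 in the reported fit, 48 with the trend and robust prior and 4 without the dim filter. The limits are 2 arrays a group, a median half-width of the 95% intervals of 0.49, and dim probe sets in the AKR1C genes.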
